A study of Homo sapiens with 16 samples.

Results

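The RNA of LNCaP cells given 1 siRNA against OGT (siOGT1) was compared with that of LNCaP cells given a scrambled siRNA (Scr), both under DMSO. The comparison was chosen by the siRNA and agent fields of the labels, which put 2 siOGT1 and 2 Scr samples in it, 4 of the 16 samples of the series, and it covers all 23830 genes that passed the filter on low counts, of 60252 in the table. LNCaP is an androgen-sensitive line from a lymph node metastasis of a prostate carcinoma. The labels give 48 hours of OGT knockdown and DMSO, the solvent control, for the last 4 of them. The other groups used here were a second siRNA against OGT (siOGT2) under DMSO, the OGT inhibitor OSMI2 under DMSO, and siOGT1 and Scr with 0.5 μM AT7519, an inhibitor of cyclin-dependent kinases, for 4 hours in place of DMSO. The sources used here do not give the siRNA sequences, the dose and time of OSMI2, or whether the OSMI2 cells also received scrambled siRNA. The series title concerns CDK9 and splicing, and gene counts measure neither splicing nor the activity of CDK9.

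OGT is the enzyme that attaches the sugar N-acetylglucosamine to serines and threonines of nuclear and cytoplasmic proteins, and OGA is the enzyme that removes it. The donor sugar, UDP-GlcNAc, is made from glucose by the hexosamine pathway. OGT also cleaves the transcriptional co-regulator HCF-1 (gene HCFC1), and many transcription factors and RNA polymerase II carry the modification.

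The siOGT1 libraries held 147019364 and 56863068 counts, and the Scr libraries 107364119 and 68529552. Levels are given as CPM, counts scaled to a common library total that is adjusted by its TMM factor, for replicates 1 and 2 in that order. CPM takes no account of gene length, so levels of different genes are not compared, and in bulk RNA fewer cells of a kind and less RNA per cell cannot be told apart. Replicates correlated with r = 0.991 across genes in either group, and on the first principal component of the 8 DMSO samples (29.3% of variance) siOGT1 stood at 25.1 and 56 and Scr at -26.3 and -22.8. Prostate luminal markers, which should be high in LNCaP, summed to 6793 to 6989.9 CPM in siOGT1 and 5859 to 5987 CPM in Scr. The leukocyte list summed to 0.549 to 0.662 CPM in siOGT1 and 0.504 to 0.543 CPM in Scr, with CD3D and MS4A1 at 0 in all 4 libraries. Whether replicates were separate cultures is not stated, so each p-value rests on the spread between replicate libraries, here of all 8 groups in the series, which could be technical.

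OGT, the targeted gene (ENSG00000147162), stood at 20.7 and 14.6 CPM in siOGT1, against 274 and 263 CPM in Scr, a 15.1-fold lower level (log2 fold change -3.91 ± 0.14, SE; adjusted p = 3.48e-11 by edgeR's quasi-likelihood test with Benjamini-Hochberg adjustment, the test behind every adjusted p below). OGA (ENSG00000198408) fell with it, to 58.8 and 35.5 CPM in siOGT1, against 330.8 and 289 CPM in Scr, which is 6.54-fold lower (-2.71 ± 0.23, adjusted p = 3.87e-05). For both enzymes every siOGT1 sample lay below every Scr sample, and both kept their calls under every alternative run.

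Across all genes, 2479 (10.4%) were called at an adjusted p under 0.05, 1165 (4.89%) higher and 1314 (5.51%) lower in siOGT1. Of these, 262 rose and 180 fell by 2-fold or more, 1.1% and 0.755% of the genes tested. Both siOGT1 samples lay above both Scr samples for 27.7% of genes and below them for 29.2%. With library size as the only scaling, which moved the median of all genes from -0.01 to 0.04 on the log2 scale, the split was 1613 higher and 1065 lower. The count depended on each library. It was 776 without siOGT1 replicate 2, 1359 without siOGT1 replicate 1, 1027 without Scr replicate 2 and 1070 without Scr replicate 1, and 560 genes (22.6% of the calls) were called in each of these 4 fits as well. No called gene changed sign in any of them.

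**Figure D1:**
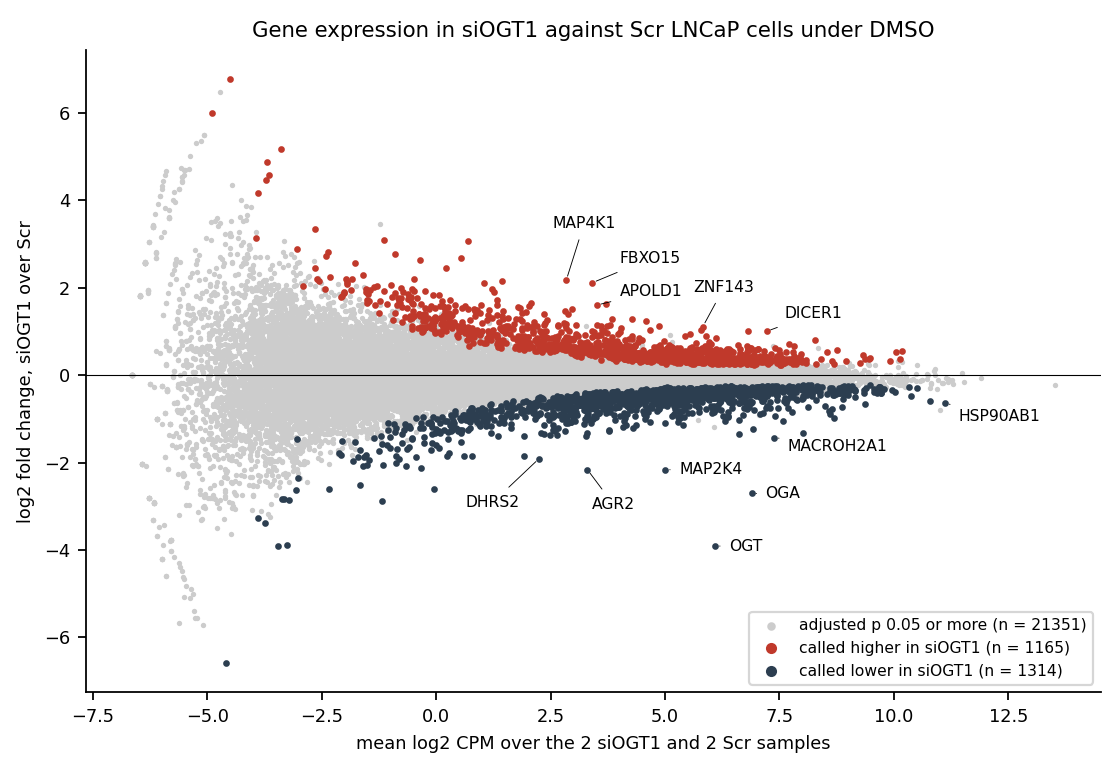
Each point is a gene, with the mean log2 CPM of the 4 samples across and the log2 fold change of siOGT1 over Scr up the page. The 1165 genes called higher are red and the 1314 called lower dark blue. OGT at -3.91 and OGA at -2.71 lie apart from other genes of their level, and the streaks at the far left are genes with few counts.

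The largest changes are named among called genes whose groups did not overlap and whose log2 CPM averaged at least 2. Of the 15 largest rises, MAP4K1 and FBXO15 were the largest. MAP4K1, a kinase upstream of JNK known from blood cells, stood at 14.9 and 15.5 CPM in siOGT1, against 3.33 and 3.41 CPM in Scr (2.17 ± 0.17). FBXO15, an F-box substrate adaptor of ubiquitin ligases, stood at 20.3 and 23.9 CPM in siOGT1, against 5.26 and 4.93 CPM in Scr (2.11 ± 0.15). In both genes the siOGT1 samples were over 2-fold above either Scr sample. HSD17B6, an oxidoreductase of androgen metabolism, stood at 6.43 and 8.63 CPM in siOGT1, against 2.41 and 2.33 CPM in Scr (1.66 ± 0.17). APOLD1, a gene of endothelial cells, stood at 17.9 and 21.9 CPM in siOGT1, against 6.61 and 6.45 CPM in Scr (1.60 ± 0.16). Its exons overlap those of DDX47 on the same strand, which had a log2 fold change of -0.07. BRME1, a factor of meiotic recombination, stood at 11.5 and 12.2 CPM in siOGT1, against 4.52 and 4.48 CPM in Scr (1.40 ± 0.18). PRKAR1B, a regulatory subunit of protein kinase A, stood at 35.4 and 38.3 CPM in siOGT1 against 15.7 CPM in both Scr samples (1.23 ± 0.10).

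The other 9 of these rises lay between 1.2 and 1.59 on the log2 scale. GRIK5, a kainate receptor subunit, rose by 1.59 on the log2 scale and SERPINI1, the protease inhibitor neuroserpin, by 1.29. MAPK10, the JNK isoform JNK3, rose by 1.26 and GSTO2, a glutathione transferase, by 1.2. CCT6B, a chaperonin subunit of the testis, rose by 1.29 and ZCWPW1, a reader of histone marks in mouse meiosis, by 1.21. C9orf43 rose by 1.52, ANKRD24 by 1.46 and the long non-coding RNA LINC01232 by 1.39. Exons of 9 of the 15 rises overlap those of another tested gene in the annotation used here, and the sources used here do not give the strand setting of the counting, so reads of overlapping genes may not have been told apart.

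The 15 largest falls held OGT, OGA and 13 other genes. MAP2K4, the kinase MKK4 that activates JNK, stood at 16.6 and 13.8 CPM in siOGT1, against 67.3 and 69.4 CPM in Scr (-2.17 ± 0.13). AGR2, a protein disulfide isomerase of secretory epithelia, stood at 4.85 and 4.49 CPM in siOGT1, against 18.6 and 23.4 CPM in Scr (-2.16 ± 0.26). DHRS2, a dehydrogenase/reductase, stood at 2.80 and 2.10 CPM in siOGT1, against 10 and 8.61 CPM in Scr (-1.91 ± 0.19). In these 3 genes the highest siOGT1 sample stayed well below the lowest Scr sample. MACROH2A1, which encodes the histone variant macroH2A1, stood at 104.9 and 98.8 CPM in siOGT1, against 283 and 265 CPM in Scr (-1.43 ± 0.08). CCNG2, the atypical cyclin G2, stood at 62.5 and 60.9 CPM in siOGT1, against 154 and 163 CPM in Scr (-1.36 ± 0.13). G3BP2, a component of stress granules, stood at 169.9 and 158 CPM in siOGT1, against 394 and 425 CPM in Scr (-1.32 ± 0.09). The others were DPY19L1, a C-mannosyltransferase (-1.4), ADAM7, a gene of the ADAM family (-1.38), APBB1, an adaptor of the amyloid precursor protein (-1.35), the histone gene H3C6 (-1.32), PALMD (-1.31), TMEM154 (-1.28) and CIART, a circadian repressor (-1.27). H3C6 belongs to a family of near-identical copies, so its own share of the counts is uncertain. Adjusted p ran from 3.48e-11 to 0.000566 over these 30 genes, and all 30 kept their calls under every alternative run.

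**Figure D2:**
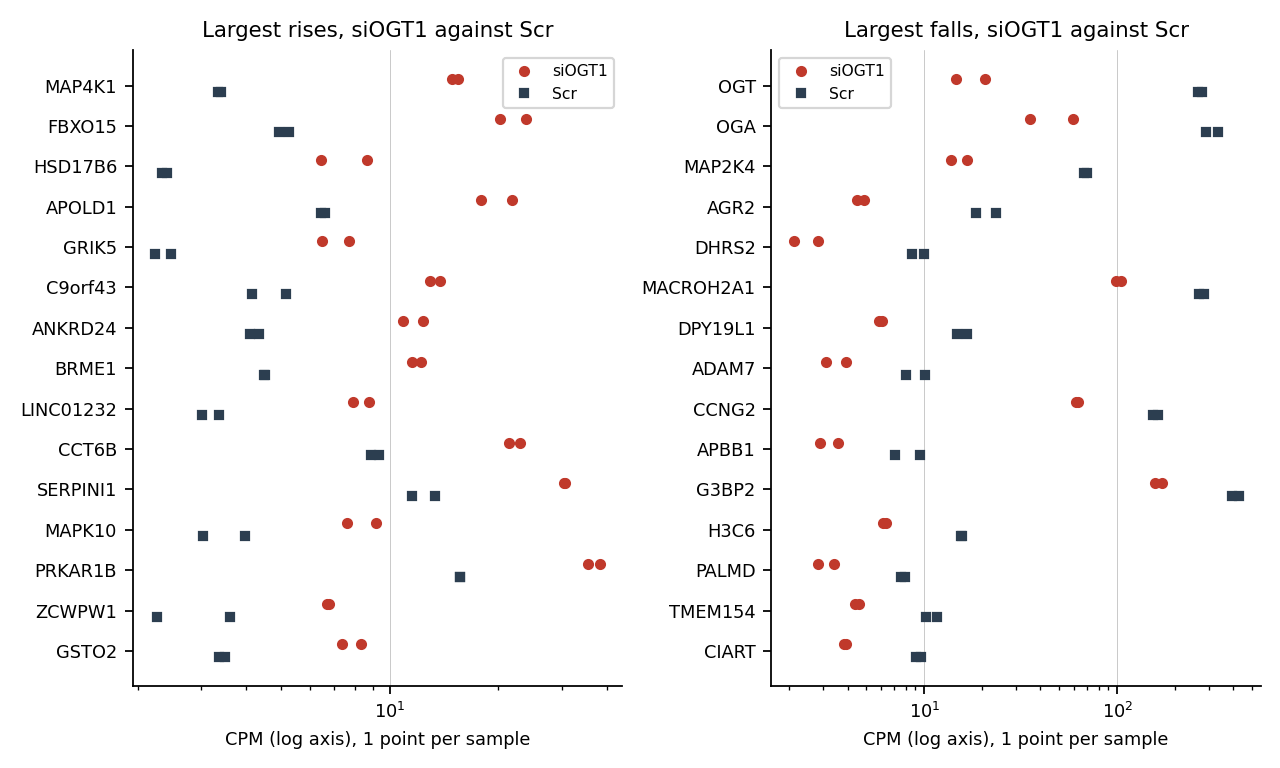
Per-sample CPM on a log axis of the 15 largest rises (left) and 15 largest falls (right) among genes named by the rule, with 1 point per sample, siOGT1 as circles and Scr as squares. The rule admits only genes whose 2 groups are apart, here from MAP4K1 (14.9 and 15.5 CPM in siOGT1, 3.33 and 3.41 CPM in Scr) to CIART (3.91 and 3.85 CPM in siOGT1, 9.11 and 9.61 CPM in Scr).

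Gene lists are described by their counts and medians beside those of all tested genes (4.89% higher, 5.51% lower, median -0.01), since members of a list are not independent of each other. Among the 14576 protein-coding genes, the kind in most lists, 6.41% were higher and 8.36% lower, with a median of -0.02. A lower share near 8.36% is thus not particular to a list, and the median was below 0 in 32 of the 45 lists. Calls were more frequent at higher levels. Of 8261 genes with a promoter sequence and a mean log2 CPM of 3 or more, 626 were higher and 819 lower. In the pathway of OGT itself, 1 of 17 tested genes rose and 4 fell. Besides OGT and OGA these were GFPT1, the rate-limiting enzyme of the hexosamine pathway, at 90.8 and 96.0 CPM in siOGT1 against 153 and 169.9 CPM in Scr (-0.79 ± 0.08), and GNPNAT1, a later step (-0.37). SLC35A3, a Golgi carrier of UDP-GlcNAc, rose by 0.34. The enzymes after GNPNAT1 did not pass, with log2 fold changes of 0.08 for PGM3 and -0.20 for UAP1. Among 26 HCF-1 and OGT chromatin partners, 3 rose and 1 fell. ZNF143, a zinc finger activator that binds promoters with HCF-1, stood at 78.8 and 88.0 CPM in siOGT1, against 36.7 and 40.6 CPM in Scr (1.11 ± 0.10, adjusted p = 1.63e-06). TET3, a DNA demethylase, rose by 0.36, YY1, a transcription factor, by 0.29, and SIN3A, a corepressor, fell by 0.31; each of these 3 calls was lost without some single sample. HCFC1 itself stood at 150.0 and 152 CPM in siOGT1, against 136 and 141 CPM in Scr, and was not called.

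JNK pathway kinases split, with 3 of 22 higher and 2 lower. MAP4K1, MAPK10 and MAP3K12 (0.66) rose, while MAP2K4 and MAPK8, which encodes JNK1 (-0.33), fell. The calls of MAP3K12 and MAPK8 were lost without some single sample. Of 35 immediate early and feedback genes, 1 rose and 8 fell, with a median of -0.23. The stress transcription factor ATF3 stood at 25.9 and 25.6 CPM in siOGT1, against 43.2 and 40.5 CPM in Scr (-0.70 ± 0.11). JUNB (-0.66), KLF6 (-0.60), JUN (-0.51), all transcription factors, and DUSP1 (-0.46), a phosphatase of MAP kinases, were lower too. The rise was EGR3, a zinc finger factor, at 0.599 and 0.727 CPM in siOGT1 and 0.141 and 0.195 CPM in Scr. Of the 9 calls only that of ATF3 held without each sample. In the MYC network, 0 of 10 genes rose and 4 fell: MYC at 129 and 139 CPM in siOGT1, against 156 and 174 CPM in Scr (-0.30 ± 0.08), and MAX (-0.36), MXI1 (-0.48) and MNT (-0.45). None of the 4 held without each sample.

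Of 28 ATF4 targets 0 rose and 8 fell, with a median of -0.30. SLC7A11, the cystine carrier, stood at 172 and 154 CPM in siOGT1, against 289.9 and 299 CPM in Scr (-0.85 ± 0.15). ATF4 itself, the activator of the amino acid response, was lower by less (-0.37), and CHAC1 (-0.91), a glutathione-degrading enzyme, and ASNS (-0.36), asparagine synthetase, were lower too. DDIT3 (-0.27) and TRIB3 (-0.28) did not pass. Of 23 ER chaperone and unfolded protein response genes 0 rose and 6 fell. HERPUD1, a factor of ER-associated degradation, stood at 58.4 and 61.2 CPM in siOGT1, against 109 and 122 CPM in Scr (-0.95 ± 0.13). Of 29 heat shock and chaperonin genes 1 rose and 4 fell. HSP90AB1, the constitutive HSP90, stood at 1834 and 1728 CPM in siOGT1, against 2801 and 2754 CPM in Scr (-0.64 ± 0.07), and HSPA4L rose by 0.66. Without each sample in turn, the calls that held were 1 of 8 for ATF4 targets (SLC7A11), 1 of 6 for ER genes (HERPUD1) and 2 of 5 for heat shock genes (HSP90AB1 and HSPA4L).

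Of 25 cholesterol synthesis genes 6 rose and 1 fell, with a median of 0.16. MVD, a decarboxylase of the mevalonate pathway, stood at 58.8 and 57.5 CPM in siOGT1, against 39.4 and 36.3 CPM in Scr (0.62 ± 0.10). LSS, which closes the sterol ring, rose by 0.61 and MSMO1, a sterol oxidase, by 0.45, while STARD4, a sterol carrier, fell by 0.39. SQLE, an oxidase that is a control point of the pathway, did not pass (0.21). Of 17 fatty acid synthesis genes 1 rose and 6 fell. The rise was ACACA, the acetyl-CoA carboxylase of fatty acid synthesis, at 864 and 781 CPM in siOGT1, against 651 and 598 CPM in Scr (0.40 ± 0.08). Lower were ELOVL6 (-0.63) and ELOVL5 (-0.40), fatty acid elongases, ME1 (-0.33), malic enzyme, and SREBF1 (-0.42), which encodes the regulator SREBP-1. None of the 7 fatty acid calls, and 2 of the 7 cholesterol calls (MVD and LSS), held without each sample. In siOGT2, which shares the Scr samples, 3 fatty acid genes rose and 0 fell, and 7 cholesterol genes rose and 1 fell; the difference between the lists was not tested.

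Androgen-responsive genes moved both ways, with 5 of 38 higher and 3 lower. SLC45A3, or prostein, stood at 216 and 266 CPM in siOGT1, against 154 and 181 CPM in Scr (0.53 ± 0.11), and STEAP2, a metalloreductase, at 1076 and 1089 CPM in siOGT1, against 856 and 875 CPM in Scr (0.32 ± 0.07). FKBP5, a co-chaperone of steroid receptors, fell to 102 and 114 CPM in siOGT1, against 136 and 159 CPM in Scr (-0.45 ± 0.09). KLK3, the gene of prostate-specific antigen, stood at 1286 and 1302 CPM in siOGT1, against 1030 and 1074 CPM in Scr, and did not pass (0.30 ± 0.11, adjusted p = 0.0896). Of 12 UGT2B and androgen metabolism genes 4 rose and 2 fell. SRD5A1, a steroid 5-alpha-reductase, stood at 55.9 and 57.7 CPM in siOGT1, against 40.6 and 39.8 CPM in Scr (0.50 ± 0.10), and AKR1C3, another androgen-forming enzyme, fell by 1.03. UGT2B15, a glucuronidation enzyme, rose by 0.46 and UGT2B10 fell by 0.76. Both belong to a family of similar genes, and reads shared within the family may not have been told apart. ADAM7 alone among the androgen-responsive genes, and SRD5A1 alone in the androgen metabolism list, held without each sample. Fits without 1 sample gave log2 fold changes of -0.55 to -0.34 for FKBP5 and -1.01 to -0.47 for UGT2B10. The call of UGT2B10 was also lost when only the groups compared were fitted. Of 13 luminal markers 2 rose and 0 fell, and the 2 are SLC45A3 and STEAP2 again. Neither call held without each sample.

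Of 43 G1/S and DNA replication genes 0 rose and 8 fell, with a median of -0.19. CCNE1, the G1/S cyclin E1, stood at 9.11 and 9.16 CPM in siOGT1, against 14.3 and 15.6 CPM in Scr (-0.71 ± 0.12). RRM2, a subunit of ribonucleotide reductase, stood at 160.4 and 159 CPM in siOGT1, against 242 and 258 CPM in Scr (-0.65 ± 0.11). The replication licensing genes CDC6 (-0.56) and MCM6 (-0.43) fell as well, and these 4 calls held without each sample. In the G2/M list, 1 of 40 rose (FOXM1, an activator of mitotic genes, by 0.25) and 3 fell. PRC1, an organiser of the mitotic spindle midzone, stood at 82.4 and 71.0 CPM in siOGT1, against 147 and 139.7 CPM in Scr (-0.90 ± 0.10), and of the 4 calls it alone held without each sample. In siOGT2, against the same Scr samples, 0 G1/S genes rose and 20 fell, with a median of -0.395. There 0 G2/M genes rose and 9 fell, with a median of -0.288. Tested directly against siOGT2, siOGT1 was higher in 2 G1/S genes and lower in 0, and higher in 6 G2/M genes and lower in 1. Of 78 cytosolic ribosomal protein genes 0 rose and 12 fell, by 0.25 to 0.46, with RPS23 at 443 and 433 CPM in siOGT1, against 601 and 604 CPM in Scr. Many processed pseudogenes share their sequence, and of the 12 calls that of RPS23 alone held without each sample.

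Of 23 snoRNA host genes, non-coding genes with snoRNAs in their introns, 0 rose and 10 fell, with a median of -0.29. SNHG3 stood at 65.5 and 58.7 CPM in siOGT1, against 116.1 and 107 CPM in Scr (-0.84 ± 0.09), and SNHG1 at 97.5 and 84.6 CPM in siOGT1, against 143 and 144 CPM in Scr (-0.65 ± 0.12). SNHG29 (-0.54), SNHG9 (-0.67) and ZFAS1 (-0.41) fell too, and 6 of the 10 calls held without each sample. Of 183 tested snoRNA genes 0 rose and 3 fell, with a median of -0.29. Among splicing genes, 0 of 26 CLK kinases and SR proteins rose and 7 fell, among them SON at 407 and 384 CPM in siOGT1, against 511 and 497 CPM in Scr (-0.35 ± 0.07), and TRA2B (-0.38). Of 49 core spliceosome genes 0 rose and 8 fell, among them PRPF8, the central U5 protein (-0.40), and SF3B3, a branch site factor (-0.35). None of these 15 splicing calls held without each sample, and with library-size scaling the core spliceosome had 1 higher and 3 lower, with PRPF8 no longer called. The ZNF zinc finger genes, most of them repressors, had 6 of 491 higher and 83 lower, with a median of -0.18; 19 of the 89 calls held without each sample, among them ZNF772 at 26.9 CPM in both siOGT1 samples, against 46.8 and 52.9 CPM in Scr (-0.89 ± 0.09).

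In the autophagy and lysosome list 4 of 37 rose and 6 fell. MAP1LC3B, the LC3B protein of autophagosomes, stood at 27.6 and 26.3 CPM in siOGT1, against 60.3 and 53.7 CPM in Scr (-1.08 ± 0.10), and the receptors NBR1 (-0.41) and SQSTM1 (-0.47) were lower, while ATG16L1 (0.49) and ATG5 (0.38) of the conjugation machinery were higher. MAP1LC3B alone held without each sample. In the RNA interference machinery 3 of 15 rose and 1 fell. DICER1, the nuclease that cuts microRNA precursors, stood at 212 and 209.9 CPM in siOGT1, against 106 and 105 CPM in Scr (1.0 ± 0.11), AGO1 rose by 0.40 and TNRC6A by 0.36, and TSN, a subunit of the C3PO nuclease, fell by 0.59. The call of TNRC6A was lost without each of the 4 samples, and the other 3 held. Of 29 apoptosis regulators 0 rose and 3 fell, PMAIP1 (NOXA, -1.0), BIRC2 (cIAP1, -0.69) and BMF (-0.57), of which BMF did not hold without each sample. Of 49 nucleolar genes 2 rose and 4 fell, the largest fall being the RNA helicase DDX21 at 269.9 and 303 CPM in siOGT1, against 481 and 572 CPM in Scr (-0.88 ± 0.09). Of 40 DNA break repair genes 0 rose and 4 fell, with NBN (-0.62) and the Ku subunits XRCC5 (-0.40) and XRCC6 (-0.36), of which XRCC5 did not hold without each sample. Among 19 epithelial and mesenchymal genes 0 rose and 5 fell, including fibronectin, FN1, at 277 and 304 CPM in siOGT1, against 469.7 and 552 CPM in Scr (-0.81 ± 0.16), and LAMB3 (-1.85), a laminin chain. LAMB3 did not meet the filters on level and group overlap that were set for the largest falls. Stromal markers summed to 20.1 to 21.7 CPM in siOGT1 and 30.2 to 31.0 CPM in Scr, with COL1A1 at 12.4 and 10.8 CPM in siOGT1 and 23.4 and 21.3 CPM in Scr, and their part in this result was not tested.

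The remaining lists are given as counts. Higher and lower calls numbered 0 and 7 of 37 for the proteasome, 1 and 6 of 34 for glycolysis and hypoxia, 1 and 4 of 76 for nuclear oxidative phosphorylation, 4 and 2 of 77 for mitochondrial ribosomal proteins, and 0 and 2 of 20 for aminoacyl-tRNA synthetases. They numbered 0 and 5 of 40 for P-TEFb, 7SK and elongation factors, 1 and 2 of 23 for Polycomb and DNA methylation, 1 and 3 of 17 for YAP-TEAD and TGF-beta targets, 0 and 4 of 45 for replication histones, and 0 and 3 of 28 for p53 targets. They were 1 and 0 of 15 for cell cycle CDKs and their inhibitors, 0 and 2 of 11 for NF-kB targets and 1 and 0 of 6 for glucose-responsive MondoA targets. Among marker lists they were 0 and 0 of 4 for basal, 0 and 2 of 5 for stromal, 1 and 0 of 5 for neuroendocrine and 0 and 0 of 1 for leukocyte markers. CDK9, the kinase of P-TEFb, stood at 54.4 and 52.7 CPM in siOGT1, against 56.4 and 54.8 CPM in Scr (-0.05 ± 0.08), and was not called. Under library-size scaling the median turned sign for the G2/M, oxidative phosphorylation, P-TEFb, hexosamine and JNK lists. Higher and lower calls then numbered 9 and 1 for mitochondrial ribosomal proteins, 3 and 3 for oxidative phosphorylation, 3 and 3 for G2/M, and 7 and 5 for autophagy and lysosome. By annotated type, 3.48% of 2328 antisense genes were higher and 0.687% lower, and 3.63% of 1736 lincRNAs were higher and 1.73% lower, against 6.41% and 8.36% of 14576 protein-coding genes.

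**Figure D3:**
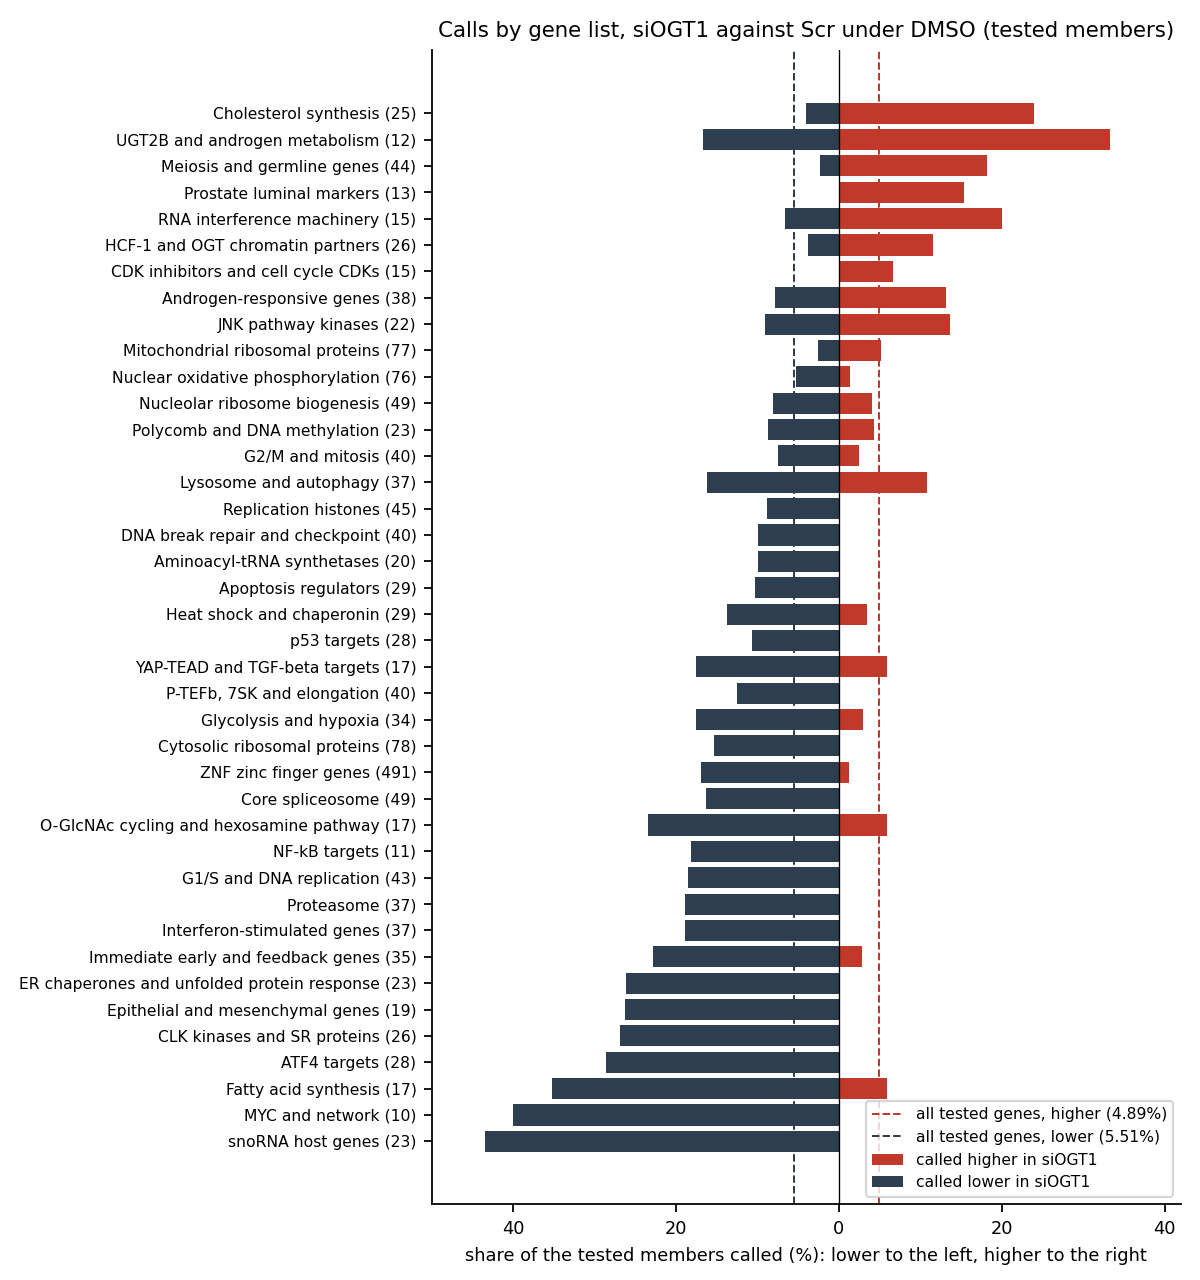
Share of tested members called higher (right) or lower (left) in siOGT1 for lists of 10 or more tested genes, with the number tested in brackets and dashed lines at the shares of all tested genes (4.89% and 5.51%), ordered by the share higher minus the share lower. Among protein-coding genes, not drawn, the shares were 6.41% and 8.36%. Cholesterol synthesis (6 of 25 higher) stands at the top and the snoRNA host genes (10 of 23 lower) at the bottom.

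Genes of meiosis and the germ line were listed after BRME1 and ZCWPW1 had been seen among the largest rises, so their count is a description. Of 44 tested members 8 rose and 1 fell, with a median of 0.23. KASH5, which links meiotic telomeres to dynein, stood at 2.78 and 2.68 CPM in siOGT1, against 0.584 and 0.404 CPM in Scr (2.45 ± 0.37), and MAJIN, which anchors those telomeres to the nuclear membrane, at 3.42 and 2.65 CPM in siOGT1, against 1.26 and 0.850 CPM in Scr (1.51 ± 0.25). Both genes had a low level in every sample. MCMDC2, a meiotic relative of the MCM helicases, rose by 1.2, CNTD1, a crossover factor, by 0.99, HSF2BP, the partner of BRME1, by 0.75 and SYCE2, a synaptonemal complex protein, by 0.73. ASZ1, a gene of the piRNA pathway, fell by 0.52. The calls of HSF2BP, SYCE2 and ASZ1 were lost without some single sample, and the other 6 held.

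Because ZNF143 rose, promoters were searched for its motif, ACTACA, any 2 bases and TCCC, on either strand, which the factor THAP11 also uses. Promoters of 300 bases, from 250 before to 50 after the annotated start, were taken from RefSeq (GRCh38.p14) and matched by symbol to 13224 tested genes, 860 of them higher and 1028 lower. The motif lay in 467 of all these promoters (3.53%), in 61 of the higher genes (7.09%) and in 33 of the lower genes (3.21%). Among genes with a mean log2 CPM of 3 or more the shares were 7.19% of the higher, 3.91% of the lower and 4.68% of all. The 4 promoters shown, chosen after their values were seen, are of the largest rises among 50 of these genes, namely those with groups that did not overlap and a log2 CPM averaging at least 2, on the chromosomes from which sequence is shown. Capitals mark the motif. They lie at chr19:13906068-13906367 on the minus strand (BRME1), chr17:42798611-42798910 on the plus strand (CNTD1), chr4:158672007-158672306 on the minus strand (C4orf46) and chr3:114056477-114056776 on the minus strand (CCDC191).
BRME1: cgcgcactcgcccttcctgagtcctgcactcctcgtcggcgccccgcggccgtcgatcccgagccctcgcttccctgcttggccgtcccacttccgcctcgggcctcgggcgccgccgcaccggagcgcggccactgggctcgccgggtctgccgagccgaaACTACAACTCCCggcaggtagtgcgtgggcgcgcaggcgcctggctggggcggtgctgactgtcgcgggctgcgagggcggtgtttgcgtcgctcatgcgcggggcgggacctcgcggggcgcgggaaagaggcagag
CNTD1: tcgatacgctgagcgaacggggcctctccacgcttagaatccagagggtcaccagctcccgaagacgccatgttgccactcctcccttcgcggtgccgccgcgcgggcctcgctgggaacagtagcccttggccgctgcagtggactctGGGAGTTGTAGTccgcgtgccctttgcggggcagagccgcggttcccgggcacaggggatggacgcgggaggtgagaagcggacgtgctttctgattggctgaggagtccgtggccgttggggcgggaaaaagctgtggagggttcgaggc
C4orf46: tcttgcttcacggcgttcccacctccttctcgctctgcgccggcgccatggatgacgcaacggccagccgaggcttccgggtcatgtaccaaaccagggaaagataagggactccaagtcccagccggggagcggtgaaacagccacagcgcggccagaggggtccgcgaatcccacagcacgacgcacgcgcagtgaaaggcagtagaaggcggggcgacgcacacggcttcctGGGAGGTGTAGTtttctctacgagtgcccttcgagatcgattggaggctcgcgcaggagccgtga
CCDC191: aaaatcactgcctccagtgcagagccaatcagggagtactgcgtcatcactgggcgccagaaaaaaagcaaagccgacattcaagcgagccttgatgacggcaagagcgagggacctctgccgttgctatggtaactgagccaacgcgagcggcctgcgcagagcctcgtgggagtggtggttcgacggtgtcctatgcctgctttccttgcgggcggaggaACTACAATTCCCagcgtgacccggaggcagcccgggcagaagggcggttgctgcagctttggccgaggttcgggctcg
The motif begins 88 bases before the start in BRME1, 101 in CNTD1, 15 in C4orf46 and 28 in CCDC191, and it is read on the opposite strand in CNTD1 and C4orf46. C4orf46 stood at 54.6 and 65.0 CPM in siOGT1, against 30.1 and 33.9 CPM in Scr (0.90 ± 0.11), and CCDC191 at 8.47 and 6.93 CPM in siOGT1, against 4.47 and 4.14 CPM in Scr (0.84 ± 0.19). A match is no evidence of binding.

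Interferon-stimulated genes, which defend against viruses, had 0 of 37 higher and 7 lower, with a median of -0.19. IFIT2, an inhibitor of viral translation, stood at 2.66 and 1.97 CPM in siOGT1, against 6.23 and 6.02 CPM in Scr (-1.39 ± 0.20). IFI44 stood at 6.07 and 5.88 CPM in siOGT1, against 10.8 and 11.9 CPM in Scr (-0.92 ± 0.14). OAS3, a sensor of double-stranded RNA, stood at 38.2 and 39.5 CPM in siOGT1, against 51.2 and 51.3 CPM in Scr (-0.40 ± 0.08). PARP14 (-0.79), OAS1 (-1.05), IFIT3 (-1.03) and IRF7 (-0.44) fell as well, and the calls of IFIT2, IFI44 and OAS3 held without each sample. The interferon response element, TTTC, any 2 bases and TTTC, on either strand, lay in the promoters of 19 of 28 tested list members and of 4 of the 5 lower members with a promoter sequence, against 2.87% of all promoters, 2.09% of the higher and 3.02% of the lower genes. The list was chosen for response to interferon, so the share among its members is no test of siOGT1. The 3 shown are, of the lower members with the element, those with the smallest adjusted p, and capitals mark the element. They lie on the plus strand at chr1:78649539-78649838 (IFI44), chr12:112938224-112938523 (OAS3, with 2 elements) and chr3:122680589-122680888 (PARP14).
IFI44: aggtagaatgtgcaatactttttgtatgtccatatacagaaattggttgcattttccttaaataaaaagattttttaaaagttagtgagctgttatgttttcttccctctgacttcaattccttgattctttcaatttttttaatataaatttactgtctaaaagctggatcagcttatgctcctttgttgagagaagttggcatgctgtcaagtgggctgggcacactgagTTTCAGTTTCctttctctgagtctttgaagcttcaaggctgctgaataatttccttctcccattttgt
OAS3: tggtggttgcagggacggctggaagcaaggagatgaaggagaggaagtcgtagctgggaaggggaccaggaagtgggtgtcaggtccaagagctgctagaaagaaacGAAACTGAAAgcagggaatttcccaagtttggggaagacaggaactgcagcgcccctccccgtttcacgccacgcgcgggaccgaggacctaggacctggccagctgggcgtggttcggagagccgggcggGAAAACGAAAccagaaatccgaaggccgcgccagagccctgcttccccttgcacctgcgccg
PARP14: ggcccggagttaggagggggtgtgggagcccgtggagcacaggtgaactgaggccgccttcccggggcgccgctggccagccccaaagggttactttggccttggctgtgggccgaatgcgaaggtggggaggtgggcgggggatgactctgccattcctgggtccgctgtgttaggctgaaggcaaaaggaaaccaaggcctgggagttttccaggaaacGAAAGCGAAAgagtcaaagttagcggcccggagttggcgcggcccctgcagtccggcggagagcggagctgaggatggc
Another 8 motifs were counted in the same promoters on both strands. The share of the higher genes, the lower genes and all genes was 0.233%, 0.778% and 0.544% for the ATF4 element TGATGCAA, 9.65%, 9.24% and 9.48% for the E-box CACGTG, and 9.3%, 11.5% and 9.57% for the E2F site TTCCCGC. It was 3.14%, 2.82% and 3.03% for the CRE TGACGTCA, 7.91%, 7.39% and 7.69% for the ETS site CCGGAAGT, and 9.3%, 9.34% and 8.99% for the NF-Y site CCAATCA. It was 1.98%, 1.17% and 1.72% for the YY1 site AAGATG followed directly by GCGGC, and 1.05%, 1.26% and 1.12% for the sterol element TCACNCCAC.

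siOGT2 offers a second siRNA against the same gene. Under DMSO it lowered OGT to 36.0 and 29.8 CPM (-3.03 against Scr) and OGA to 62.3 and 40.7 CPM (-2.59), with 1025 genes (4.3%) called against the same 2 Scr samples, 457 higher (1.92%) and 568 lower (2.38%). Tested directly against siOGT2, siOGT1 had OGT lower by a further 0.89 on the log2 scale (adjusted p = 0.00113) and OGA at -0.12 ± 0.22, not called. In that test 433 genes (1.82%) differed, 168 higher (0.705%) and 265 lower (1.11%) in siOGT1. Without 1 of the 4 samples the count fell to between 131 (siOGT1 replicate 2 left out) and 195 (siOGT1 replicate 1), with 136 and 162 without siOGT2 replicates 2 and 1. Of the 265 genes lower in siOGT1 than in siOGT2, 203 were also called lower in siOGT1 than in Scr and 5 lower in siOGT2 than in Scr; the comparisons share samples, so these counts describe where the difference lay. With AT7519, in libraries of none of the groups compared here, 207 of the 265 were called lower in siOGT1 than in Scr, against 9.19% of all tested genes. That test shares its estimate of the spread with the others.

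Several of the largest falls differed in this way. MAP2K4 stood at 16.6 and 13.8 CPM in siOGT1, against 62.2 and 66.8 CPM with siOGT2, 62.1 and 56.1 CPM with OSMI2 and 67.3 and 69.4 CPM in Scr, and was 2.08 ± 0.13 lower on the log2 scale in siOGT1 than in siOGT2 (adjusted p = 4.88e-09). AGR2 stood at 4.85 and 4.49 CPM in siOGT1, against 15.8 and 18.2 CPM with siOGT2, 20.6 and 35.9 CPM with OSMI2 and 18.6 and 23.4 CPM in Scr. MACROH2A1 stood at 104.9 and 98.8 CPM in siOGT1, against 259 and 245 CPM with siOGT2, 247 and 230.2 CPM with OSMI2 and 283 and 265 CPM in Scr. The siOGT1 samples of these genes stood below all 6 other samples. G3BP2 (-1.24), DPY19L1 (-1.17), GCH1 (-1.04), which makes the cofactor tetrahydrobiopterin, MAP1LC3B (-0.98) and GFPT1 (-0.88) were also lower in siOGT1 than in siOGT2. LRRC31 (-1.44) and the pseudogene FAR2P2 (-1.28), which shares sequence with its parent gene, were likewise lower, but there siOGT2 lay above Scr (0.83 and 1.27).

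Of the 168 genes higher in siOGT1 than in siOGT2, 68 were also higher in siOGT1 than in Scr, and 52 were lower in siOGT2 than in Scr. With AT7519, 95 of the 168 were called higher in siOGT1 than in Scr, against 9.97% of all tested genes. TGM3, a transglutaminase, stood at 19.3 and 16.7 CPM in siOGT1, against 6.46 and 6.94 CPM with siOGT2, 5.32 and 6.77 CPM with OSMI2 and 8.79 and 7.81 CPM in Scr (1.43 ± 0.17 against siOGT2, adjusted p = 5.68e-05). In NAV3, RAB20 and CTSL both siOGT2 samples lay below all 6 other samples. RAB20, a small GTPase of endosomes, stood at 10.5 and 10.6 CPM in siOGT1, against 4.93 and 4.22 CPM with siOGT2, 9.07 and 7.83 CPM with OSMI2 and 11.3 and 10.5 CPM in Scr. DICER1 was 0.78 higher in siOGT1 than in siOGT2 (adjusted p = 0.000178), and stood at 119.9 and 125 CPM with siOGT2 and 97.4 and 91.6 CPM with OSMI2.

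**Figure D4:**
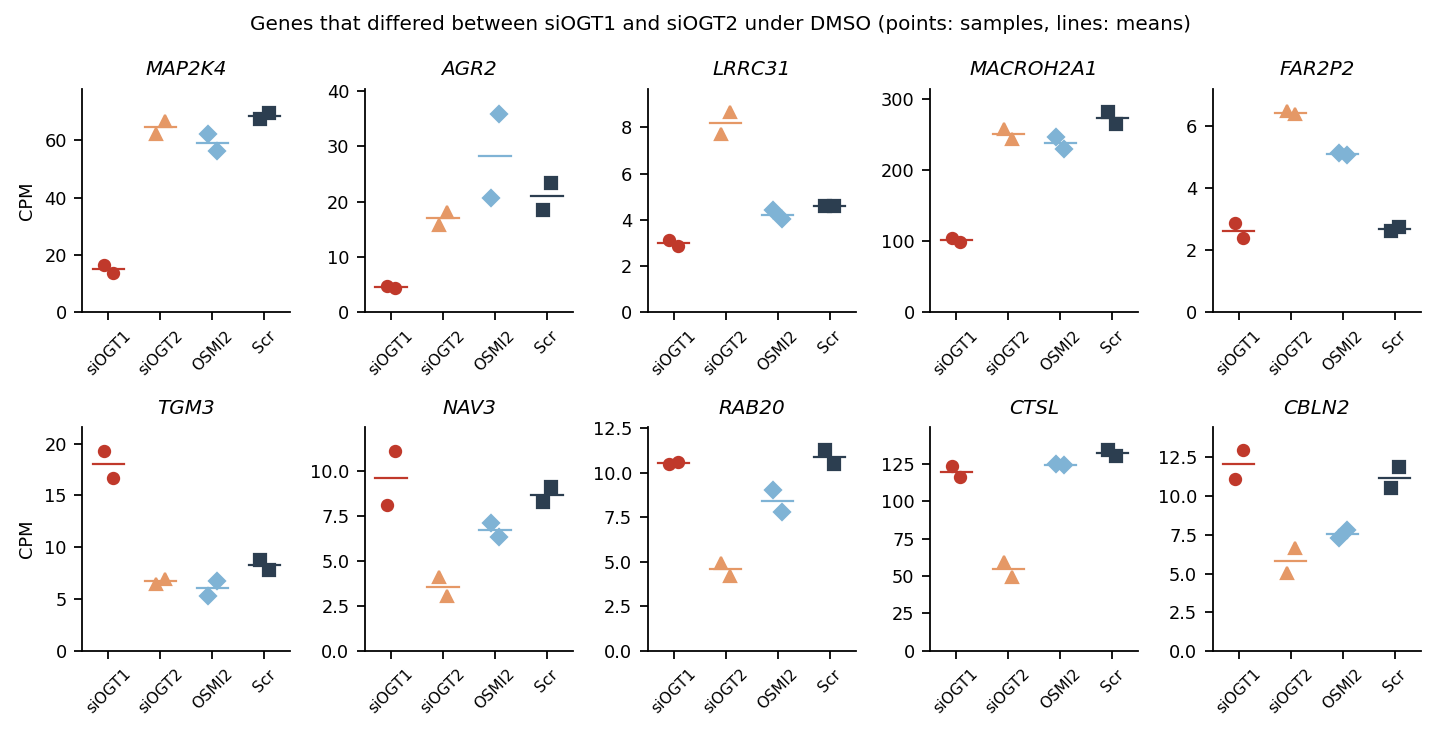
CPM of the 5 genes lowest (top) and 5 highest (bottom) in siOGT1 relative to siOGT2 under DMSO, with 1 point per sample, lines at the means and axes from 0. In MAP2K4, AGR2 and MACROH2A1 siOGT1 lies below siOGT2, OSMI2 and Scr, and in NAV3, RAB20 and CTSL siOGT2 lies below siOGT1, OSMI2 and Scr.

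For other large changes the values of both siRNAs, which share the Scr samples, are given side by side. MAP4K1 had log2 fold changes of 2.17 in siOGT1 and 1.88 in siOGT2, FBXO15 2.11 and 1.55, HSD17B6 1.66 and 1.48, ZNF143 1.11 and 0.81, BRME1 1.40 and 1.06, and DHRS2 -1.91 and -2.06. Smaller in siOGT2 were CCNG2, at -1.36 in siOGT1 and -0.59 in siOGT2, MAPK10, at 1.26 and 0.58, and GSTO2, at 1.2 and 0.59, the last 2 of them not called in siOGT2. Tested directly, FBXO15 (0.57, adjusted p = 0.0404) and CCNG2 (-0.77, adjusted p = 0.00307) differed between the siRNAs, and MAPK10 (adjusted p = 0.108) and GSTO2 (adjusted p = 0.109) were not called. With OSMI2, where OGT stood at 349 and 336 CPM and OGA at 226 and 238 CPM, 710 genes (2.98%) were called against the same Scr samples, 117 higher (0.491%) and 593 lower (2.49%). The OSMI2 log2 fold change was -1.02 for DHRS2, adjusted p = 0.00635, and no other of the 30 largest changes was called there.

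The same siRNA was also given with AT7519, in 4 libraries that are in neither group of the DMSO comparison. Both tests took their low-count filter and their estimate of the spread from all 16 samples, so their calls are not fully independent. There 4566 genes (19.2%) were called in siOGT1 against Scr, 2377 higher (9.97%) and 2189 lower (9.19%); the count was 2853 without siOGT1 replicate 2 and 3026 without Scr replicate 2. Of the 2479 genes called under DMSO, 2449 (98.8%) had the same sign with AT7519, 2035 (82.1%) were called in the same direction and 0 in the opposite one. The 2035 were 44.6% of the genes called with AT7519. By direction, 986 of 1165 rises (84.6%) and 1049 of 1314 falls (79.8%) were called again. OGT stood at 11.0 CPM in both siOGT1 samples with AT7519, against 256 and 314 CPM in Scr (-4.70), and OGA at 48.6 and 56.8 CPM in siOGT1, against 281 and 255 CPM in Scr (-2.35). MAP2K4 (-2.18), MACROH2A1 (-1.81), MAP4K1 (1.93), FBXO15 (2.12) and ZNF143 (1.53) were called again, as were all 30 largest changes. All 10 lower snoRNA host genes, 12 lower ribosomal protein genes and 8 lower G1/S genes were called lower with AT7519 too. The ZNF143 motif lay in the promoters of 5.85% of genes higher and 3.82% of genes lower with AT7519. Under DMSO it lay in those of 6.82% of genes higher and 4.01% of genes lower in siOGT2 than in Scr. With OSMI2 under DMSO the shares were 8.86% (7 of 79) and 6.44% (32 of 497), against 3.53% of all promoters. ZNF143 itself was not called with OSMI2 (-0.07), and a link of the motif to its rise was not tested. EGR3 (0.65), SPRED1 (-0.02), a feedback inhibitor of Ras, and ADM2 (0.14), called under DMSO, were not called with AT7519.

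**Figure D5:**
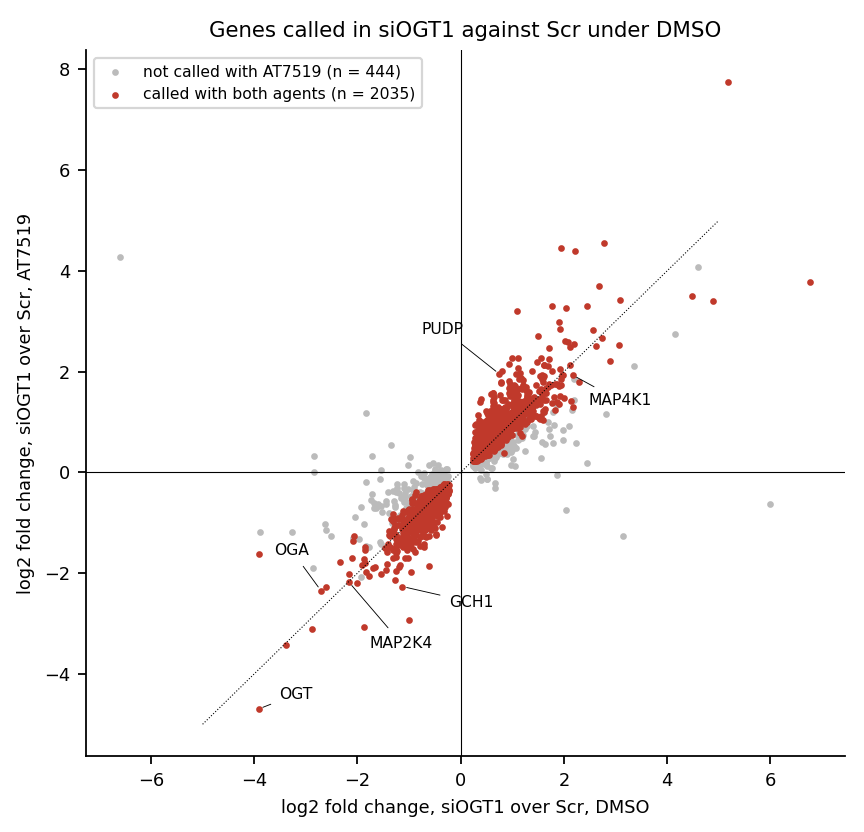
Log2 fold change of siOGT1 over Scr under DMSO (across) and with AT7519 (up the page) for the 2479 genes called under DMSO, with the 2035 genes called with both agents in red and a dotted line where the values are equal. The 2035 genes lie at the lower left and upper right.

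A test of the difference between the agents called 12 genes (0.0504%), 9 (0.0378%) with a higher and 3 (0.0126%) with a lower log2 fold change with AT7519. At an unadjusted p under 0.05 there were 1393. GCH1 stood at 14.3 and 13.4 CPM in siOGT1 and 29.9 and 30.8 CPM in Scr under DMSO, and at 6.59 and 5.85 CPM in siOGT1 and 31.7 and 28.0 CPM in Scr with AT7519, a log2 fold change of -1.13 under DMSO and -2.27 with AT7519. PUDP, a phosphatase, stood at 26.9 and 28.3 CPM in siOGT1 and 16.4 CPM in both Scr samples under DMSO, and at 26.6 and 28.3 CPM in siOGT1 and 7.83 and 6.40 CPM in Scr with AT7519. In PUDP the Scr samples, and in GCH1 the siOGT1 samples, were the ones whose levels differed between agents. Among DMSO samples the count was 3 and 6 without siOGT1 replicates 1 and 2 and 5 and 7 without Scr replicates 1 and 2. Among AT7519 samples it was 15 and 5 without siOGT1 replicates 1 and 2 and 20 and 5 without Scr replicates 1 and 2.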

How the data were processed

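Total RNA of 16 LNCaP samples in 8 groups of 2 was sequenced with a strand-specific kit, per the labels' protocols. The authors deposited raw read counts per gene, 1 whole number per Ensembl gene and sample; the submitters' processing notes name STAR, HTSeq, DESeq2 and the builds hg19 and GRCh37, without versions. Of 60252 gene IDs, 40412 were matched to a name. Exon overlaps and gene types come from GENCODE v29 (GRCh38) and promoters from RefSeq (GRCh38.p14), matched by ID or symbol, with no coordinates carried between builds.

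From these counts, edgeR 4.0.16 (R 4.3.3) fitted all 16 samples by group, after its filter on low counts (23830 genes kept) and TMM scaling, with 8 residual degrees of freedom and a common biological coefficient of variation of 0.11. Its quasi-likelihood test was adjusted by Benjamini-Hochberg over all genes kept, at 0.05. The SE is the log2 fold change divided by the root of F. Library totals ran from 40216911 to 147019364 counts. Tested on simulated data for siOGT1 against Scr under DMSO with 23830 genes, the script recovered 61.3% of 75 genes changed 1.5-fold, 93.3% of 75 changed 2-fold and 100% of 50 changed 4-fold, and 2.35% of its calls were false. Simulated samples were drawn independently, while real siRNA samples of the same replicate number varied together. Far fewer genes were changed there than were called here, so 2.35% is not the false share of the real calls.

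Named were OGT and OGA, the 15 largest rises and falls and the 5 largest differences each way from siOGT2 and between agents, among called genes whose log2 CPM averaged at least 2 (and, for the rises, falls and siOGT2 differences, whose groups did not overlap). To these came up to 4 called members per list with the smallest adjusted p, and MYC, KLK3, CDK9 and HCFC1. Genes named outside this rule, after their values were seen, were ADM2, ASNS, ATG5, C4orf46, CCDC191, DDIT3, DDX47, DUSP1, EGR3, ELOVL6, GNPNAT1, IFIT3, IRF7, JUN, MAP3K12, OAS1, PGM3, SNHG1, SQLE, SQSTM1, TRIB3, UAP1 and UGT2B15. The members and lists were chosen with earlier results of these data known. DESeq2 1.42.0 and limma 3.58.1 (voom), other scalings and filters, thinning to the smallest library, subsets of samples, a replicate block and leaving out each sample were run as alternatives. Some results are not reported here.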

Additional observations from a re-analysis of the deposited data

Results flagged for a closer look

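In 8 named genes the siOGT1 effect differed between the agents by the test of that difference (edgeR's quasi-likelihood test, Benjamini-Hochberg adjusted). Given as the log2 fold change of siOGT1 over Scr with AT7519 minus that under DMSO, the difference was 1.33 for GDPD1 (SE 0.15, adjusted p = 0.000665), 1.2 for PUDP (SE 0.17, adjusted p = 0.00432), 1.06 for GPR157 (SE 0.16, adjusted p = 0.00799), 1.03 for DENND6A (SE 0.13, adjusted p = 0.00233) and 0.95 for IL1R1 (SE 0.15, adjusted p = 0.0174). It was -1.13 for GCH1 (SE 0.15, adjusted p = 0.00233), -1.01 for SLC26A2 (SE 0.16, adjusted p = 0.0174) and -0.60 for ZNF217 (SE 0.11, adjusted p = 0.0423). GDPD1 stood at 27.2 and 29.2 CPM in siOGT1 and 24.9 and 26.4 CPM in Scr under DMSO, and at 13.3 and 14.4 CPM in siOGT1 and 4.97 and 5.06 CPM in Scr with AT7519. SLC26A2, a sulfate carrier, stood at 28.6 and 26.7 CPM in siOGT1 and 51.3 and 57.1 CPM in Scr under DMSO, and at 11.1 and 9.31 CPM in siOGT1 and 44.6 and 35.6 CPM in Scr with AT7519. In all 8 genes the siOGT1 effect had the same sign with both agents and was the larger with AT7519.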

How the results depend on the processing

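OGT and OGA kept their direction and calls under all alternatives run, and no named gene reversed. For siOGT1 against Scr under DMSO (2479 calls) the count was 3925 with the groups compared alone, 4117 with the 8 DMSO samples, 4018 with the 6 siRNA samples and 442 with a 2-fold minimum. With AT7519 (4566) these were 2533, 2906, 2437 and 989, and for siOGT1 against siOGT2 (433) 825, 883, 847 and 43. The last comparison had 783 calls by DESeq2 and 697 without the low-count filter. The difference between agents (12) had 20 with library size only, 118 by DESeq2, 23 by limma voom, 100 without the filter and 6 with a 2-fold minimum. Leaving out single samples gave 776 to 1359, 2853 to 3427, 131 to 195 and 3 to 20 calls in these 4 comparisons. Apart from the replicate blocks, other settings stayed within 1.5 times. The causes were not tested, and the 6-sample fits were chosen after seeing the data.

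No label pairs samples of the same replicate number, each comparison has 2 such pairs, and the main fit used no replicate block. Among the siRNA groups of an agent, samples of the same number nevertheless varied together, and what they shared was not tested. Replicate differences correlated across 10028 genes with r = 0.603 for siOGT1 and Scr under DMSO, 0.634 for siOGT1 and siOGT2, 0.642 for siOGT2 and Scr, and 0.684 to 0.734 with AT7519, against 0.0473 to 0.103 between OSMI2 and these groups under DMSO. With a replicate block the count was 3204 under DMSO, 678 against siOGT2 and 34 between agents. With a replicate block within agent it was 4387, 1300 and 218, and with the block on the 6 siRNA samples it was 8184 under DMSO, 8065 with AT7519 and 4310 against siOGT2. With 2 samples a group, changes under 2-fold were often missed in the simulation.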
